A study of Mus musculus with 24 samples.

Results

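Striatal projection neurons (SPNs, also called medium spiny neurons) are the GABAergic output cells of the striatum and make up most of the neurons of the nucleus accumbens (NAc), its ventral part. The 8 genes described here, Ppp1r1b, Rgs9, Pde10a, Adcy5, Gnal, Foxp1, Bcl11b and Meis2, were taken by name from 52636 gene identifiers because direct- and indirect-pathway SPNs both express them, and all 8 passed the filter on low counts in every comparison. They were followed through 24 RNA-seq libraries, each from the bilateral NAc of 1 C57BL/6 mouse (C57BL/6J in the study's methods) killed at 50 days of age. The groups were control-reared (Con) females, females raised under MSUS (maternal separation with stress of the dam at unpredictable times), Con males and MSUS males, each of 6 mice. In the MSUS groups the litter was taken from the dam from postnatal day 1 to 14, for 2 h per day by the series' description and for longer by the study's methods, and Con litters were not manipulated in that time. A punch of this kind takes in every cell type of the region and whatever neighbouring tissue it cuts, so that fewer SPNs and less RNA per SPN cannot be told apart in these values.

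The signalling members form the dopamine- and adenosine-driven cAMP cascade of these cells. Gnal encodes Golf, the G protein α subunit that couples dopamine D1 and adenosine receptors to adenylyl cyclase in place of Gs, and Adcy5 encodes the main striatal adenylyl cyclase. Pde10a encodes the phosphodiesterase that breaks down cAMP and cGMP in SPNs, Rgs9 a GTPase-activating protein that shortens signalling by inhibitory G proteins, and Ppp1r1b encodes DARPP-32, which inhibits protein phosphatase-1 once protein kinase A has phosphorylated it. The other 3 members are transcription factors of the SPN lineage: the forkhead factor Foxp1, the zinc finger factor Bcl11b (Ctip2), which is required for SPN maturation, and the TALE homeodomain factor Meis2.

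Sequence before the transcription start is shown for 4 members, each of which has a single start in the RefSeq promoter table (GRCm38.p6). The levels of the 8 genes moved together from library to library, and whether these stretches have a part in that was not tested. RefSeq gave 9 promoters for 6 of the 8 genes, of which 1 was for Rgs9, Adcy5, Bcl11b and Meis2 each, 2 were for Pde10a and 3 for Foxp1. The 250 bases upstream of the RefSeq start are written 5′ to 3′ on the strand of the gene. By the GENCODE M21 positions given further on, the stretch of Meis2 lies inside the gene and that of Bcl11b partly so. Capitals mark matches, on either strand, to GGGCGG (the GC box of Sp factors), TGACG (core of the cAMP response element), TGACAG (the Meis core), TGTTTAC (a forkhead motif) or TATAAA (the TATA box).
Adcy5 (chr16:35154614-35154863, plus strand): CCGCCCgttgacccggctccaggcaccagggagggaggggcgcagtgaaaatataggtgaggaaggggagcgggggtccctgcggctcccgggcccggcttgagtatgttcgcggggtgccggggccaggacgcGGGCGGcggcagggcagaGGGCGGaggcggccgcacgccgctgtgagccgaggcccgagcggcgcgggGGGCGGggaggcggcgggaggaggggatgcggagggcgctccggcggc
Rgs9 (chr11:109298182-109298431, minus strand): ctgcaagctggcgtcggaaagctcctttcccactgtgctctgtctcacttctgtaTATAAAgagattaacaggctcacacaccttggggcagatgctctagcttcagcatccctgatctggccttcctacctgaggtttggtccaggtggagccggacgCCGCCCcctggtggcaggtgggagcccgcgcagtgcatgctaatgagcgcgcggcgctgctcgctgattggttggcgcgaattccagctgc
Bcl11b (chr12:108003415-108003664, minus strand): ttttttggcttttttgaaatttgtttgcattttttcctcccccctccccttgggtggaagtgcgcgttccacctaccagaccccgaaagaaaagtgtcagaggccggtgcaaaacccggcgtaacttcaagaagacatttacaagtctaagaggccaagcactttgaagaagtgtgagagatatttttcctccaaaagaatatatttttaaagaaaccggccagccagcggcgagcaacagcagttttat
Meis2 (chr2:116064620-116064869, minus strand): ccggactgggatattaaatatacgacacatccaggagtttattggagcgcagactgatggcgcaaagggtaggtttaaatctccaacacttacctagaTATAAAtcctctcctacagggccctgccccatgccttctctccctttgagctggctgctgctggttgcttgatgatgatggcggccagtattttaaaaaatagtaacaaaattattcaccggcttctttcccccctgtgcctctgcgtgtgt
The 4 stretches differed in composition. That of Adcy5 was 78% G or C with 32 CpG dinucleotides and 4 GC boxes, whereas that of Bcl11b was 44.8% G or C with 9 CpG and held none of the 5 motifs. The stretch of Rgs9 held 1 GC box and 1 TATAAA, which began at base −195 from the start, and that of Meis2 held 1 TATAAA, which began at base −152. Over all 32851 promoters of the table, 32.7% held GGGCGG, 17.8% TGACG, 15.9% TGACAG, 3.17% TGTTTAC and 12.4% TATAAA, with a median of 52.4% G or C. Among the 9 promoters of the 6 genes, TGACG and TGACAG were each found in 1, both of Foxp1, and TGTTTAC in none. A match is a run of letters and was not tested as a site.

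Counts were the authors' unnormalized STAR counts of read pairs on the sense strand of each gene, which summed to between 39923666 and 70575745 per library, and each of the 8 genes had at least 10440 counts in every library. Counts were scaled to 1000000 counts of TMM-normalized library size (CPM) and are compared within a gene. For levels between genes, CPM was divided by the kilobases of exon of the gene (RPKM). This length merges the exons of all annotated transcripts, so RPKM is too low for a gene whose transcripts in use are shorter.

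All 8 genes were among the more abundant of the tissue, at percentiles of 93.2 to 99.8 of mean RPKM over 21450 genes. Mean RPKM over the 24 libraries was 262 ± 55.8 for Ppp1r1b, 176 ± 31.6 for Adcy5, 111 ± 21.5 for Pde10a, 77.3 ± 9.52 for Gnal and 64.4 ± 12.2 for Rgs9 (SD, n = 24). It was 48.9 ± 4.88 for Bcl11b, 37.6 ± 4.81 for Meis2 and 27.5 ± 3.898 for Foxp1. Each neighbouring pair in this order had overlapping ranges over the 24 libraries, but within a library the upper gene lay above the lower in 24 of 24 libraries for 6 of the 7 pairs. The exception was Rgs9, which was above Bcl11b in 22 of 24 libraries. The level of Ppp1r1b depended on the strand setting: counted without regard to strand its mean was 186 RPKM, where exons of 1700003D09Rik overlap it on the opposite strand and STAR drops pairs that fall on both genes. Gnal overlaps Mppe1 in the same way (72.7 RPKM without regard to strand). Foxp1 shares exon sequence on its own strand with the gene models Gm20696 and Gm49348, so its count is uncertain. Reads on the opposite strand made up between 0.232% and 1.77% of the stranded pairs of the 8 genes.

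On GRCm38, with GENCODE M21 positions, Ppp1r1b (ENSMUSG00000061718.12) spans bases 98348404 to 98357796 and Rgs9 (ENSMUSG00000020599.13) bases 109225355 to 109298129 of chromosome 11, on opposite strands. Pde10a (ENSMUSG00000023868.15) lies on chromosome 17 from 8525372 to 8986648, Adcy5 (ENSMUSG00000022840.8) on chromosome 16 from 35154877 to 35305738, and Gnal (ENSMUSG00000024524.16) on chromosome 18 from 67088216 to 67226792. Foxp1 (ENSMUSG00000030067.17) lies on chromosome 6 from 98925338 to 99522721, Bcl11b (ENSMUSG00000048251.15) on chromosome 12 from 107910403 to 108003602 and Meis2 (ENSMUSG00000027210.20) on chromosome 2 from 115863064 to 116065839. All 8 are protein-coding, and counts were taken over their exons.

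Each of the 8 was set beside chosen relatives of its family, and had the highest mean RPKM among them. Ppp1r1b stood above its paralogs in 24 of 24 libraries, at a median of 7.93 times Ppp1r1a (35.1 ± 3.84 RPKM), the gene of phosphatase inhibitor-1, and Ppp1r1c was near the floor at 0.0307 RPKM. Pde10a made up 95.2% ± 0.880 of the summed RPKM of itself, Pde2a, Pde5a and Pde11a, phosphodiesterases that carry GAF domains as it does. Pde1b, a calmodulin-dependent phosphodiesterase of both cyclic nucleotides that is outside this sum, had a higher mean than Pde10a, at 148 RPKM. Adcy5 took 67.8% ± 8.60 of the summed adenylyl cyclase RPKM, ahead of Adcy1, a calcium-stimulated cyclase of cortex, at 26.1 ± 11.4 and Adcy2 at 21.6 ± 4.88 RPKM. Rgs9 was above Rgs6, Rgs7 and Rgs11 in 24 of 24 libraries and took 75.04% ± 5.48 of the R7 family.

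Among the transcription factors, Bcl11b took 81.7% ± 2.40 of the sum with Bcl11a, Meis2 80.4% ± 1.97 of the Meis family and Foxp1 64.2% ± 2.51 of the Foxp family. The closest relative was that of Gnal. Gnas, which encodes the ubiquitous Gs α subunit, reached 46.4 ± 10.8 RPKM, and Gnal lay above it in 22 of 24 libraries, with a median ratio of 1.92. The share of Gnal in the sum of both ranged from 41.8% to 72.3%. This order and share, like the other family shares, rest on merged exon lengths, and lengths of single transcripts were not tried. Gnas was above Gnal in Con female 3 and MSUS male 6, the libraries with the highest Gnas (836 and 812 CPM against a median of 467), whose other markers are described further on.

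**Figure D1:**
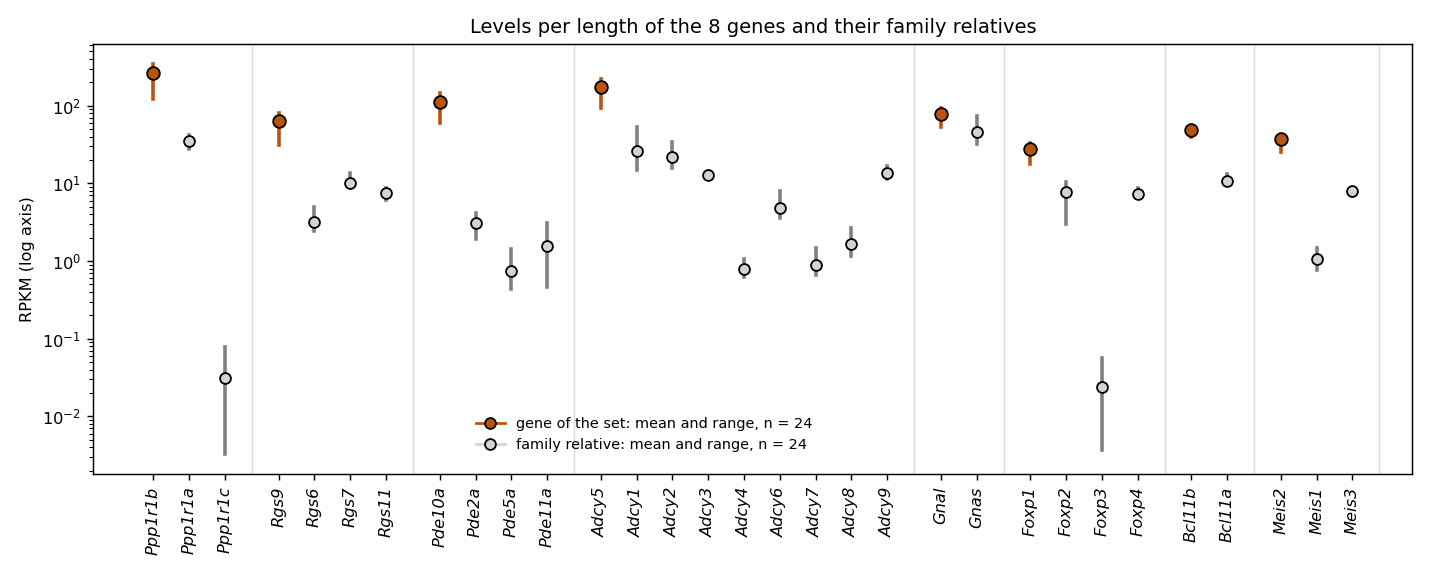
Mean (point) and range (line) of RPKM over 24 libraries, on a log axis, for each of the 8 genes (orange) and its family relatives (grey), with families separated by vertical lines. The mean of each of the 8 lies above those of the relatives plotted, with Gnal at 77.3 and Gnas at 46.4 RPKM. Pde1b, which is not plotted, had a higher mean than Pde10a.

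The first question was whether MSUS changed these genes in females, the sex in which 5156 of 20571 genes tested (25.1%) passed an adjusted p of 0.10 by edgeR's quasi-likelihood test. None of the 8 did: 0 of 8 passed, 0 had an unadjusted p under 0.05, against 32.7% of all genes, and DESeq2 called 0 as well. Their differences lay on both sides of 0, with 6 above and 2 below, and the median log2 fold change of the 8 was 0.024 against −0.0027 over all genes tested. The female groups overlapped for each of the 8 genes, while they did not overlap for 7.02% of all genes.

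In the cAMP cascade, Gnal had 599, 903 and 1042 CPM in Con females (lowest, median and highest) and 798, 909 and 958 CPM in MSUS females, which gave 0.074 ± 0.11 on the log2 scale (SE, adjusted p = 0.677). Adcy5 had 670, 1355 and 1558 CPM in Con females and 1046, 1325 and 1495 CPM in MSUS females, which gave 0.024 ± 0.17 (SE, adjusted p = 0.938). For both, the Con range enclosed the MSUS range, and the low end of it was 1 mouse, Con female 3. Pde10a had 762, 1520 and 1889 CPM in Con females and 1312, 1428 and 1585 CPM in MSUS females. Rgs9 had 200.3, 430 and 508 CPM and 375, 432 and 499 CPM in these groups. Their log2 fold changes were −0.022 (95% confidence interval −0.38 to 0.33) and 0.099 (−0.29 to 0.49). Ppp1r1b, the most abundant of the 8, had 362, 867 and 1022 CPM in Con females and 613, 834 and 910 CPM in MSUS females, a log2 difference of −0.023 ± 0.21 (SE, adjusted p = 0.952).

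The transcription factors had standard errors of 0.070 to 0.11. Bcl11b, with 318, 413 and 445 CPM in Con females and 377, 413 and 421 CPM in MSUS females, gave a log2 fold change of 0.010 with a 95% confidence interval of −0.14 to 0.16, the narrowest of the 8. Foxp1 had 244, 389 and 432 CPM in Con females and 343, 378 and 411 CPM in MSUS females, a log2 fold change of 0.024 (−0.21 to 0.26). Meis2 had 309, 470 and 497 CPM in Con females and 420, 480 and 500.3 CPM in MSUS females, and its log2 difference of 0.12 ± 0.10 (SE, adjusted p = 0.423) was the farthest from 0. The standard errors of the signalling genes, 0.11 to 0.21, were above the median of 0.095 over all genes tested, so that intervals as wide as −0.48 to 0.43 for Ppp1r1b leave room for differences of that size.

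**Figure D2:**
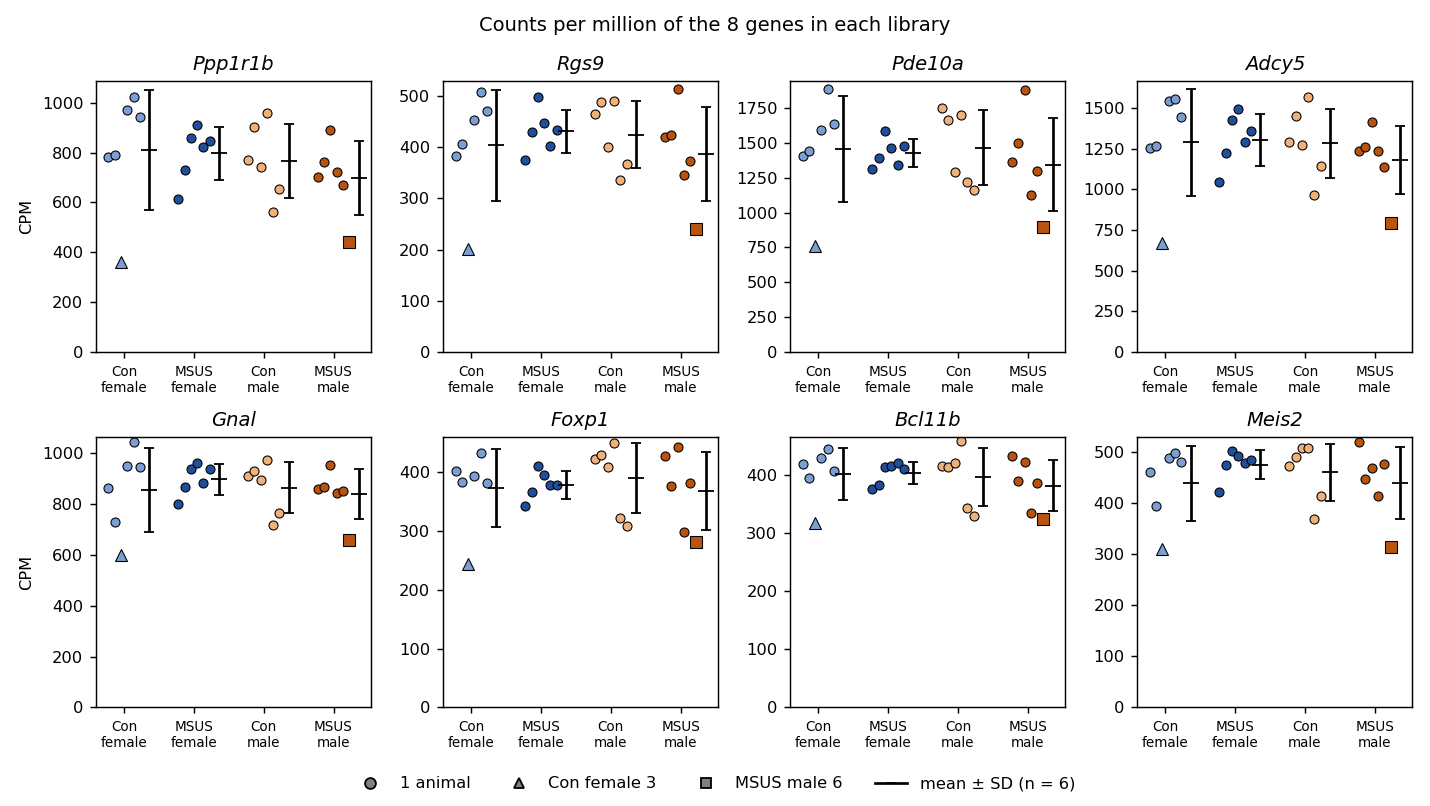
CPM of each gene in each of 24 mice, by group, with the mean ± SD of 6 mice beside the points; axes start at 0. The groups overlap in every panel, and Con female 3 (triangle) and MSUS male 6 (square) are the lowest points of their groups in all 8.

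The signs of these small differences in females changed with the mouse left out. Ppp1r1b and Pde10a, below 0 with all mice, lay at 0.047 and 0.061 without Con female 5. Without Con female 3, which gave the lowest value for each gene, the log2 fold changes of 7 genes lay below 0. They ran from −0.18 for Ppp1r1b and −0.15 for Pde10a to −0.011 for Gnal, and Meis2 stayed above at 0.038. None of the 8 passed in that fit, where the lowest adjusted p was 0.166, for Pde10a. The summed level of 9 markers of cortical excitatory neurons was 263, 619 and 1704 CPM in Con females and 129, 218 and 762 CPM in MSUS females, so that the groups overlapped, and none of the 9 was at 0 in all libraries. Of these markers 8 lay below 0 in MSUS females, but 1 passed (Emx1, adjusted p = 0.0944). With the mean z-score of these 9 markers as a covariate, the log2 fold changes of all 8 lay below 0, from −0.39 for Ppp1r1b to −0.062 for Meis2, and again none passed (lowest adjusted p = 0.246). The share of read pairs assigned to no gene also separated the female groups, at 31.0% to 34.8% in Con and 36.3% to 43.9% in MSUS. With this covariate 0 of 8 genes and 0 of all genes passed in females, and the standard error of Ppp1r1b grew from 0.21 to 0.43.

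In males the same comparison gave lower values in MSUS for all 8 genes, none of which passed. Because the levels of the 8 genes moved together between libraries, counts of them in any comparison are not counts of independent readings. The log2 fold changes ran from −0.14 for Rgs9 to −0.043 for Gnal, with a median of −0.10 against 0.0028 over all genes, and every adjusted p was 1.00. The background here was empty: 0 of 20691 genes (0%) passed by edgeR or DESeq2, and 191 (0.923%) had an unadjusted p under 0.05, none of them among the 8. Ppp1r1b had 563, 758 and 961 CPM in Con males and 443, 711 and 892 CPM in MSUS males, and Adcy5 had 966, 1281 and 1571 CPM and 791, 1235 and 1417 CPM. The male groups overlapped for each gene (0 of 8 did not overlap, against 0.0419% of all genes).

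The other male values were of the same kind. Pde10a had 1166, 1477 and 1754 CPM in Con males and 893, 1331 and 1880 CPM in MSUS males, so that both the lowest and the highest male value were in MSUS mice, as they were for Rgs9 (241 and 514 CPM). Gnal had 715, 901 and 970 CPM in Con males and 657, 854 and 954 CPM in MSUS males. Of the transcription factors, Meis2 had 369, 481 and 507 CPM in Con males and 313, 457 and 519 CPM in MSUS males, Bcl11b lay between 324 and 460 CPM and Foxp1 between 281 and 450.2 CPM over the 12 males. Without MSUS male 6 the log2 fold change of Ppp1r1b was −0.032, that of Rgs9 −0.032 and that of Pde10a −0.032, while Gnal and Meis2 turned to 0.018 and 0.015.

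Between the sexes none of the 8 passed the test. In Con animals, where 544 of 20641 genes (2.64%) passed, 0 of 8 did. All genes called split into 0.799% higher and 1.84% lower in females, while of the 8 without a call 3 lay above 0 (higher in females) and 5 below, and log2 fold changes ran from −0.063 for Rgs9 to 0.097 for Ppp1r1b. In MSUS animals, where 28 of 20714 genes (0.135%) passed, 0 of 8 did, and all 8 lay above 0, from 0.039 for Foxp1 to 0.19 ± 0.14 for Ppp1r1b (SE, adjusted p = 0.686). No gene of the 8 had an unadjusted p under 0.05 or a DESeq2 call in either comparison, where 17.8% of all genes in Con and 7.29% in MSUS animals had such a p. Groups did not overlap for 0 of 8 genes in both, against 1.99% of all genes in Con and 0.633% in MSUS animals. The comparisons of this series share their groups in pairs, so these directions are not independent of the male ones above.

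Whether the change with MSUS differed between the sexes was tested as an interaction, which called 0 of 21500 genes (0%) by edgeR and 408 by DESeq2, and 0 of the 8 by either. An unadjusted p under 0.05 was reached by 4031 genes (18.7%) and by 0 of the 8. All 8 interaction terms lay above 0, from 0.064 for Bcl11b to 0.23 for Rgs9 (95% confidence interval −0.28 to 0.74). Without Con female 3 and MSUS male 6 together, a fit chosen after the data were seen, 7 of the 8 lay below 0, from −0.15 for Ppp1r1b to −0.0093 for Rgs9, and Meis2 was at 0.021.

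**Figure D3:**
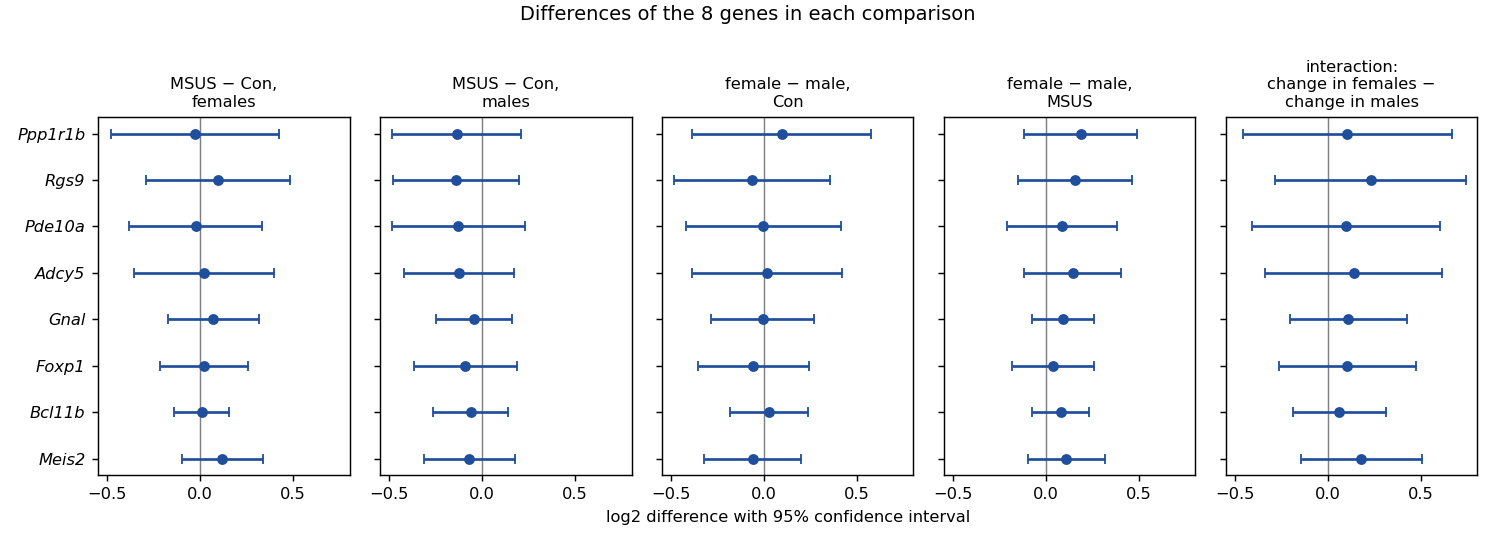
Log2 difference of each gene with its 95% confidence interval in 5 comparisons (edgeR's quasi-likelihood fit; 6 mice per group, all 24 for the interaction). Every interval crosses 0, and in each comparison the narrowest interval is that of Bcl11b.

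The 8 genes varied together from mouse to mouse, within each group as well as across groups. Over the 24 libraries the 28 pairs of genes had a Pearson r of log2 CPM between 0.81 and 0.99 (median 0.89) and a Spearman rho between 0.54 and 0.98, with an adjusted p of at most 4.0e-05 for r and 0.00747 for rho by permutation of the libraries (100000 resamples, two-sided; the smallest p they can give is 1.0e-05). Both values of a pair come from the same library and share its normalization. The relation was as close with each group centred on its own mean (r between 0.820 and 0.995), and r was between 0.76 and 0.99 in libraries 1 to 12 and between 0.74 and 0.99 in libraries 13 to 24. Without the 2 libraries farthest from the median, which were Con female 3 and MSUS male 6 for each pair, r was between 0.52 and 0.98.

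The closest pair was Ppp1r1b with Adcy5 (r = 0.99), and the least close was Pde10a with Meis2 (r = 0.81). The 10 pairs of signalling genes had a median r of 0.94, the 3 pairs of transcription factors 0.88 and the 15 mixed pairs 0.85. The amplitude differed from gene to gene: the pooled SD of log2 CPM within groups was 0.37 for Ppp1r1b, 0.34 for Rgs9, 0.33 for Pde10a and 0.31 for Adcy5, but 0.24 for Foxp1, 0.21 for Meis2, 0.20 for Gnal and 0.16 for Bcl11b. The median over 21500 genes was 0.19.

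**Figure D4:**
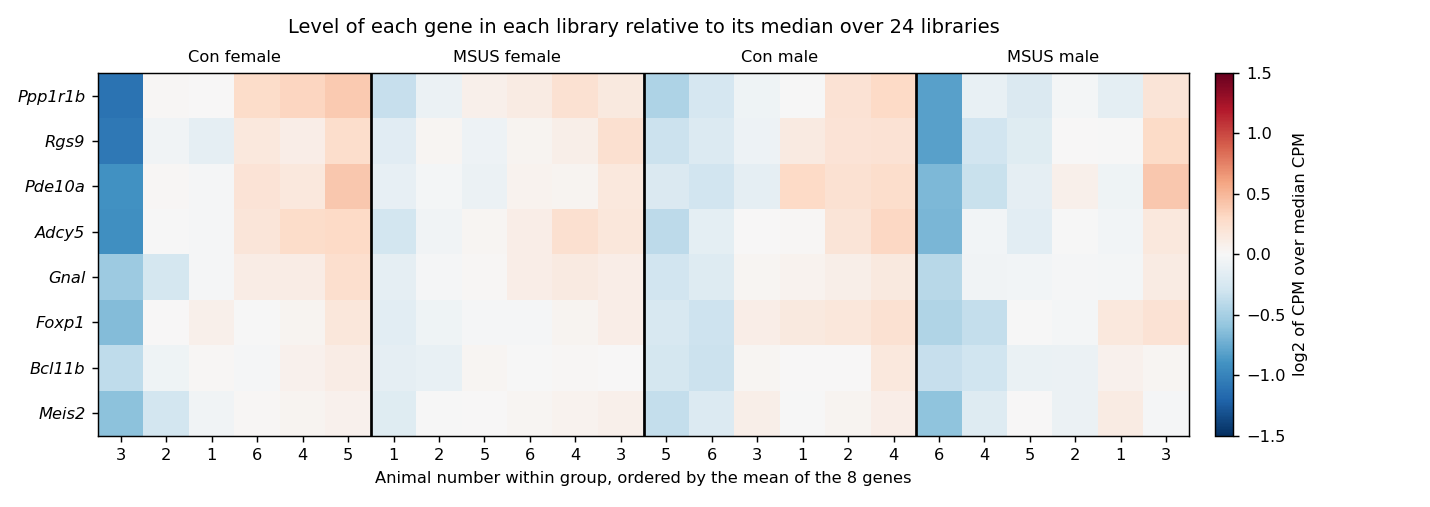
Log2 of the CPM of each gene over its median of 24 libraries (colour), with mice in columns, ordered within each group by the mean of the 8 genes. Columns change as a block, and Con female 3 and MSUS male 6 are low in all 8 rows.

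Con female 3 had the lowest level of the 24 for all 8 genes, and MSUS male 6 the next lowest for all 8. In Con female 3, Ppp1r1b was at 362 CPM, 38.3% of the median of the other 5 Con females, Rgs9 at 44.1%, Adcy5 at 46.3% and Pde10a at 47.8%, whereas Foxp1 was at 61.8%, Gnal at 63.4%, Meis2 at 64.3% and Bcl11b at 75.7%. In MSUS male 6 the 8 genes were at 57.2% (Rgs9) to 83.1% (Bcl11b) of the median of the other 5 MSUS males. Con males 5 and 6 were also among the 6 lowest libraries for all 8 genes. The mean z-score of the cortical markers was high in Con male 5 (1.10) but low in Con male 6 (−0.91). At the other end, Con male 4 was highest for Adcy5, Foxp1 and Bcl11b, and Con female 5 for Ppp1r1b, Pde10a and Gnal.

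Other markers of SPNs were low in the same 2 mice. The summed direct-pathway markers (Drd1, Tac1, Pdyn, Isl1 and Chrm4) were at 312 CPM in Con female 3 and 364 CPM in MSUS male 6 against a median of 694 CPM, and the indirect-pathway markers (Drd2, Penk, Adora2a, Gpr6 and Sp9) at 510 and 674 against 1210 CPM. The cortical excitatory neuron markers were highest in these 2 libraries, at 1704 and 1711 CPM against a median of 369 CPM. Slc17a7, the vesicular glutamate transporter of cortical neurons, was at 1172 and 1164 CPM against a median of 188 CPM and a lowest value of 4.201 CPM in the series. Oligodendrocyte markers were at 6335 and 5753 CPM against a median of 5030 CPM, the highest and the third highest. The summed levels of astrocyte, microglia and endothelial markers in these 2 libraries lay within the range of the others. The summed level of the relatives of the family comparison was 2400 and 2330 CPM in these 2 libraries, against a median of 1611 CPM. Gnas (836 and 812 against 467 CPM) and Adcy1 (670 and 610 against 267 CPM) were large parts of it. Not every relative was high there: Foxp2 was at 49.5 and 58.0 against 137 CPM, and Pde2a at 11.7 CPM in both against 19.5 CPM. Over the 24 libraries 13 of 22 relatives had a negative r with the mean of the 8. The part of these other cell types in the levels of the 8 genes was not tested beyond the fit with the cortical score.

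Over the 24 libraries, a relation to the cortical score, added after the data were seen, had r from −0.31 (Pde10a) to −0.68 (Meis2). By permutation of the libraries, with adjustment over the 8 genes, the adjusted p was 0.00112 for Meis2 and 0.138 for Pde10a. Spearman's rho was between −0.097 and −0.64, with adjusted p = 0.00776 for Meis2 and 0.0582 for Adcy5. Within libraries 1 to 12 r was −0.32 to −0.73, within libraries 13 to 24 it was −0.21 to −0.62, and without the 2 libraries farthest from the median score it was −0.21 to −0.62. Without Con female 3 and MSUS male 6 it changed sign for Pde10a (0.21) and Foxp1 (0.021), was −0.068 to −0.34 for the other signalling genes and Bcl11b, and was −0.46 for Meis2. Within groups of 6 mice, given without a test, r was −0.78 to −0.91 in Con females and −0.29 to −0.71 in MSUS males, the groups of these 2 libraries. It was −0.30 (Pde10a) to −0.90 (Bcl11b) in MSUS females and −0.49 (Meis2) to 0.14 (Pde10a) in Con males. The relation to the share of read pairs assigned to no gene did not pass for any of the 8: r was 0.10 to 0.47, and the largest, for Meis2, had an adjusted p of 0.174 by permutation (rho = 0.43, adjusted p = 0.290; r = 0.39 without the 2 farthest libraries, and 0.46 and 0.50 within libraries 1 to 12 and 13 to 24).

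**Figure D5:**
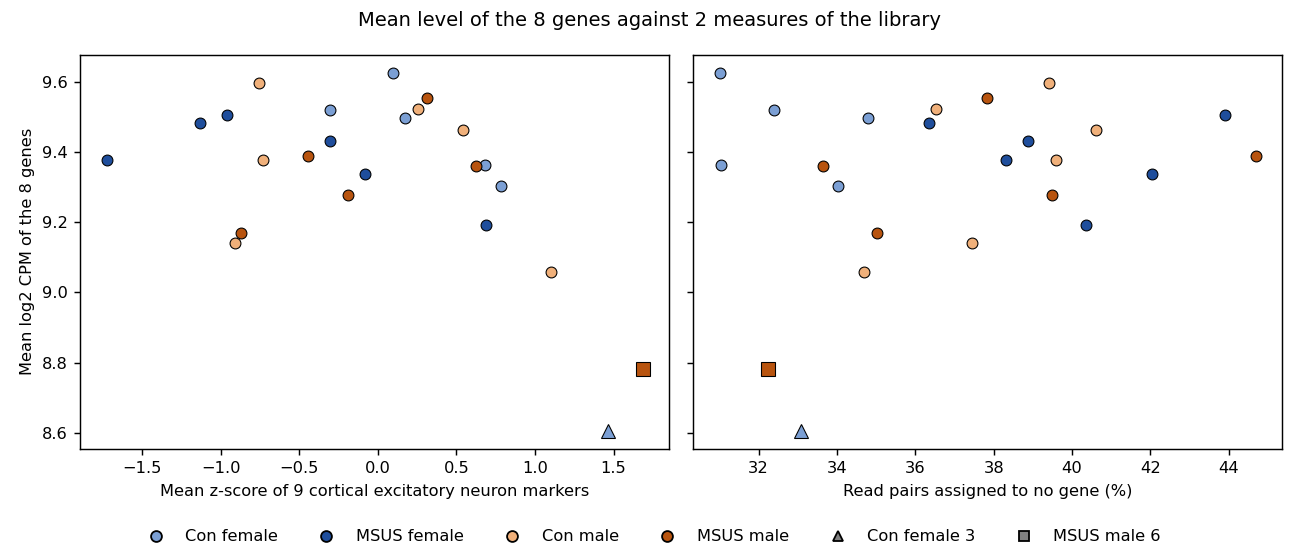
Mean log2 CPM of the 8 genes in each of 24 libraries against the mean z-score of 9 cortical excitatory neuron markers (left) and the percentage of read pairs assigned to no gene (right), with groups by colour. The 2 lowest libraries, Con female 3 (triangle) and MSUS male 6 (square), have the highest cortical scores, 1.46 and 1.68, and the other 22 are scattered.

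Of the 21492 other genes, the 5 whose log2 CPM followed the mean of the 8 most closely over the 24 libraries were Drd1 (r = 0.98), the D1 dopamine receptor of direct-pathway SPNs, Adora2a (0.98), the adenosine receptor of indirect-pathway SPNs, Kcnab1 (0.98), a potassium channel β subunit, Pde1b (0.98), a calmodulin-dependent phosphodiesterase, and Phactr1 (0.98), a regulator of protein phosphatase-1 and actin. Without Con female 3 and MSUS male 6 the r of these 5 genes was 0.94 to 0.95. They were picked by this r, so the near-equal values of Drd1 and Adora2a do not compare the 2 pathways. The 5 direct-pathway markers had a median r of 0.88 (0.74 to 0.98) and the 5 indirect-pathway markers 0.97 (0.75 to 0.98). Over all genes the median r was −0.0080, and 109 genes exceeded 0.9.

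A list of 12 other genes shared by both SPN classes had a median r of 0.94 with the mean of the 8. Rgs7bp, which anchors the R7 RGS proteins such as Rgs9 at the membrane, was the exception at 0.0070, and the next lowest was Actn2 at 0.90. The other lineage transcription factors were mixed. Rarb (0.94), Dlx6 (0.89), Zfp503 (0.89) and Tshz1 (0.87) followed the 8 closely, whereas 6 of 18 had a negative r, among them Mef2c (−0.66), Sp8 (−0.57) and Dlx1 (−0.55).

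Of 28 genes of cAMP and DARPP-32 signalling, 5 passed in females, a smaller share than the 25.1% of all genes tested. Of the 28, 0 were higher and 5 were lower with MSUS, against 13.1% and 11.9% of all genes tested. The list's median log2 fold change was 0.018. Prkaca, a catalytic subunit of protein kinase A, fell by 0.15 on the log2 scale (SE 0.036, adjusted p = 0.0189), Cdk5, a kinase that phosphorylates DARPP-32 at a site which turns it into an inhibitor of protein kinase A, fell by 0.11 (adjusted p = 0.0206), and Ppp1ca, a catalytic subunit of protein phosphatase-1, fell by 0.20 (adjusted p = 0.0222). The other 2, named after their values were seen, were the G protein subunit Gnb1, which fell by 0.20, and the protein kinase A regulatory subunit Prkar1b, which fell by 0.30. In Con female 3, Gnb1 was at 724 CPM against a median of 572 CPM over the 24 libraries, and Prkar1b at 503 against 331 CPM. Prkaca was at 189 against 166 CPM there, and Cdk5 at 64.6 against 57.5 CPM. The r of these with the mean of the 8 lay between −0.40 (Cdk5) and −0.80 (Prkar1b). Ppp1ca went the other way, at 174 against 182 CPM and with an r of 0.41. The part of Con female 3 in these falls was not tested. None of the 8 members or of these 28 genes passed in males, where 0 of 20691 genes tested (0%) did.

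Of 12 shared SPN genes, 0 passed in females, with log2 fold changes from −0.13 (Rasd2) to 0.12 (Ptpn5). Among the lineage transcription factors 0 rose, and Dlx2, which acts in progenitors and interneurons, fell by 0.58. Of the 21 family relatives tested, 2 rose and 3 fell, a share close to the 25.1% of all genes. Adcy7 rose by 0.35 and Pde11a by 0.80 on the log2 scale, and Foxp4 (−0.18), Adcy2 (−0.39) and Rgs6 (−0.38) fell. None of the 5 direct-pathway or 5 indirect-pathway markers passed. In males no gene of any of these lists passed, as 0 of all 20691 genes tested did.

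Of the markers of other cells, 6 of 8 oligodendrocyte markers fell in females, against 11.9% of all genes called lower, with Mag (log2 fold change −0.28), Mbp (−0.30) and Cnp (−0.23) the first by p. The calls in the other lists, each of 1 or 2 genes, were Emx1 (−1.82) of 9 cortical markers, Sst (−0.39) and Pvalb (−0.85) of 8 interneuron markers and Aldh1l1 (−0.11) of 6 astrocyte markers. No microglial or endothelial marker passed, and none of these lists held a marker that rose. With the cortical score as a covariate 2407 genes passed in females, and with the share outside genes as a covariate 0 did.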

How the data were processed

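The members and gene lists were chosen with earlier results of these data known. Per the labels and the study's methods, RNA of bilateral NAc punches was depleted of ribosomal RNA without poly(A) selection, and pairs were aligned to mm10 with STAR (2.6.1b in the submitters' processing notes) and GENCODE M15. The authors deposited raw counts of read pairs per gene, unstranded and for each strand; the sense-strand counts were used. Identifiers were matched to GENCODE M21 on GRCm38 (52489 of 52636), and coordinates and exon lengths are from there. Promoters are from RefSeq.

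Counts were filtered with filterByExpr (minimum count 10), TMM-normalized and tested with edgeR 4.0.16 (robust quasi-likelihood F test, R 4.3.3), with Benjamini-Hochberg adjustment over all genes and a threshold of 0.10. In a simulation of the female comparison over 20342 genes, edgeR recovered 15 of 50 genes changed by 1.25 times, 27 of 50 by 1.5 times and 44 of 50 by 2 times. Of its 148 calls 17 were false. With so few changed genes the adjustment is stricter than in the real comparison, where 5156 passed, so these shares do not carry over. DESeq2 1.42.0, its size factors in edgeR, no filter, unstranded counts, covariates (library set, share of pairs in no gene, cortical marker score), a replicate block, a fit of all 24 libraries and leaving out each library were tried. Correlations used log2 CPM with a prior count of 2 and permutation p-values (scipy 1.17.1).

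Stage of the estrous cycle, a term of the study's female model, was left out, because 6 males carry a stage in the labels and 6 females carry none. The named genes are the 8 members, the genes with the 3 smallest p in each direction in females from each list, and the 5 genes most correlated with the members' mean. The values of 1 gene of the lineage transcription factor list are not reported here. Each library is 1 mouse; nothing in the sources used here says which mice were littermates. No 2 libraries of a group agreed within sampling noise (60 pairs, lowest chi-square per gene 6.36).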

Additional observations from a re-analysis of the deposited data

Results flagged for a closer look

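In 5 of 32 gene-by-group sets of 6 mice, 1 mouse stood apart from the others by Dixon's criterion, which chance meets in about 1 in 20 sets. Con female 3 was the lowest Con female for Ppp1r1b (362 CPM), Adcy5 (670 CPM) and Foxp1 (244 CPM), with the other 5 Con females at 785 CPM or more for Ppp1r1b, 1252 CPM or more for Adcy5 and 383 CPM or more for Foxp1. MSUS male 6 was the lowest MSUS male for Gnal (657 CPM, against 844 CPM or more in the others). MSUS female 1 was the lowest MSUS female for Meis2 (420 CPM). The sets share mice, so these are not independent.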

How the results depend on the processing

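The count of members called was 0 in each of the 5 comparisons and under each alternative run, DESeq2 and each mouse left out included. The fold changes, none of which passed, changed sign in 47 of 360 values over the other alternatives and in 48 of 576 values with 1 mouse left out. With counts without regard to strand, the log2 fold changes that changed sign were Adcy5 −0.0025, Foxp1 −0.0016 and Bcl11b −0.017 for MSUS against Con in females and Pde10a 0.021 and Gnal 0.019 between the sexes in Con animals. With the replicate number as a block, the log2 fold changes that changed sign were Ppp1r1b 0.029 and Pde10a 0.022 for MSUS against Con in females and Adcy5 −0.017 between the sexes in Con animals. With the share of pairs in no gene as a covariate they were Ppp1r1b 0.16 for MSUS against Con in females, Rgs9 0.077, Pde10a 0.12, Gnal 0.071, Foxp1 0.064 and Meis2 0.066 between the sexes in Con animals, Foxp1 −0.037 between the sexes in MSUS animals and Ppp1r1b −0.0048, Rgs9 −0.022, Pde10a −0.10, Foxp1 −0.13, Bcl11b −0.090 and Meis2 −0.057 in the interaction. With the cortical score as a covariate they were Rgs9 −0.15, Adcy5 −0.29, Gnal −0.12, Foxp1 −0.15, Bcl11b −0.12 and Meis2 −0.062 for MSUS against Con in females, Rgs9 0.044, Pde10a 0.072, Gnal 0.089, Foxp1 0.016 and Meis2 0.044 between the sexes in Con animals, Foxp1 −0.027 between the sexes in MSUS animals and Ppp1r1b −0.21, Pde10a −0.035, Adcy5 −0.15, Gnal −0.062, Foxp1 −0.036, Bcl11b −0.051 and Meis2 −0.025 in the interaction. Without Con female 3 and MSUS male 6, a fit added after the data were seen, they were Ppp1r1b −0.15, Rgs9 −0.0093, Pde10a −0.12, Adcy5 −0.082, Gnal −0.031, Foxp1 −0.054 and Bcl11b −0.037 in the interaction. With 1 mouse left out, the log2 fold changes that changed sign in this or the previous fit are given by their range. For MSUS against Con in females they ran from −0.18 to 0.047 for Ppp1r1b, from −0.040 to 0.17 for Rgs9, from −0.15 to 0.061 for Pde10a, from −0.11 to 0.081 for Adcy5, from −0.011 to 0.13 for Gnal, from −0.074 to 0.065 for Foxp1 and from −0.051 to 0.036 for Bcl11b. For MSUS against Con in males they ran from −0.093 to 0.018 for Gnal and from −0.12 to 0.015 for Meis2. Between the sexes in Con animals they ran from −0.00071 to 0.23 for Ppp1r1b, from −0.14 to 0.057 for Rgs9, from −0.092 to 0.11 for Pde10a, from −0.075 to 0.13 for Adcy5, from −0.077 to 0.061 for Gnal, from −0.14 to 0.023 for Foxp1, from −0.041 to 0.072 for Bcl11b and from −0.14 to 0.0055 for Meis2. Between the sexes in MSUS animals they ran from −0.0062 to 0.21 for Pde10a and from −0.027 to 0.10 for Foxp1. In the interaction they ran from −0.042 to 0.19 for Ppp1r1b, from 0.10 to 0.33 for Rgs9, from −0.029 to 0.22 for Pde10a, from 0.011 to 0.21 for Adcy5, from 0.032 to 0.18 for Gnal, from 0.013 to 0.17 for Foxp1 and from 0.0072 to 0.11 for Bcl11b.

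The deviations of same-numbered mice of 2 groups had r from −0.37 to 0.40 over 24 pairs. Differently numbered mice were not set beside them, so whether the numbers pair mice cannot be told from this. The block left 0 members called, and 3800 genes called in females, 12 between the sexes in Con and 20 in MSUS animals. With all mice kept, calls over all genes in females ranged from 0 with the share of pairs in no gene as a covariate to 6823 with counts without regard to strand. DESeq2 called 5746. The level of Ppp1r1b was 186 RPKM without regard to strand; the other 7 levels, and the correlations with the share of pairs in no gene, stayed within 1 SD or on their side of the threshold. With at least 10440 counts a gene in each library, counting error was small beside the spread between mice.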
